A study of Rattus norvegicus with 6 samples.

Results

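The heat shock chaperones of the cytosol were examined in primary rat microglia, with 10 genes chosen by name: Hspa1a, Hspa1b, Hspa8, Hsp90aa1, Hsp90ab1, Hsph1, Hspb1, Dnajb1, Bag3 and Hsf1. Of these, 8 were among the 23139 genes listed in the count tables and all 8 were among the 11977 genes that passed the filter on low counts. Hspa1a and Hspa1b, the inducible HSP70 pair, were not listed under these names and were not analysed here. Microglia were shaken off mixed cultures of Wistar rat cortex from postnatal day 1 and enriched with magnetic beads against CD11b/c. All libraries came from cells given lipopolysaccharide (LPS, a bacterial cell wall molecule that activates microglia) at 100 ng/ml, either with the solvent DMSO (the LPS group) or with 50 µM siponimod, a sphingosine-1-phosphate receptor modulator (the LPS/siponimod group). There were 3 biological replicates per group. Resting cells and cells given siponimod without LPS were not analysed here. The methods of the study name 1 and 3 days of stimulation, without saying which applied to the sequenced cultures. Polyadenylated mRNA was sequenced, with total counts of 39484979, 38301365 and 38080379 for LPS replicates 1, 2 and 3 and of 46643859, 43336006 and 38857441 for LPS/siponimod replicates 1, 2 and 3.

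HSP70 and HSP90 are ATP-driven machines that bind unfolded or partly folded client proteins. J-domain proteins deliver clients to HSP70 and start its ATP cycle, while exchange factors such as HSP110 and BAG proteins release the nucleotide and free the client. In resting cells chaperones hold the transcription factor HSF1 inactive; when unfolded proteins occupy the chaperones, HSF1 forms trimers and binds heat shock elements, which are inverted repeats of a short GAA unit in the promoters of its target genes. HSP90 also has clients among the kinases of LPS signalling, and chaperone transcripts are commonly read as a sign of proteotoxic stress in cultured cells.

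Promoter sequence is shown first because heat shock genes are known for this element and its presence is set beside the counts further on. Windows reaching from 250 bases before to 50 bases after the annotated start were taken from RefSeq, assembly GRCr8, which is a later build than the mRatBN7.2 assembly the authors mapped to. A window was found for Hspa8, Hsp90ab1, Hsph1, Hspb1, Dnajb1 and Bag3, and also for Hspa1a, for which no counts are at hand. The motif searched was the element with 2 units, GAANNTTC or TTCNNGAA, each of which reads the same on both strands, and the longer form with 3 units, GAANNTTCNNGAA or TTCNNGAANNTTC, which overlaps with 2 matches of the shorter form. The stretches that hold the matches upstream of the start are printed in the direction of transcription, with the matches in capitals.
Hspa8, chr8:50080289-50080483, strand +: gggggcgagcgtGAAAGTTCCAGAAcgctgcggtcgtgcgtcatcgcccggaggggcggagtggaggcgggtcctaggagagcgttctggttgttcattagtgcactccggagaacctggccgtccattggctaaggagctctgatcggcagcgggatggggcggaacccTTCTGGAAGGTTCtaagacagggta
Hsph1, chr12:10427251-10427356, strand +: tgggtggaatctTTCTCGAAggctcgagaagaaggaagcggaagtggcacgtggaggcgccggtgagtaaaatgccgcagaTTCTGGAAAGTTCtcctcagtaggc
Hspb1, chr12:26432391-26432442, strand -: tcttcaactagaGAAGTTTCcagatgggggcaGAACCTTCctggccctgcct
Dnajb1, chr19:41431142-41431164, strand -: tcgggaggggcgGAAGGTTCtgg
Bag3, chr1:192533316-192533347, strand +: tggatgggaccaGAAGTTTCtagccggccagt
Hspa8 held 4 matches of the short form, which join into 2 matches of the 3-unit form at bases -213 to -201 and -55 to -43 from the start. Hsph1 held 3 short matches and 1 long match at bases -36 to -24. Hspb1 held 2 short matches, Dnajb1 2, of which the one at bases 18 to 25 lies after the start, and Bag3 1 at bases -132 to -125. No match was found in the windows of Hsp90ab1 and Hspa1a. Thus 5 of the 6 members with counts and a window held the short form and 2 the long form, against 15.9% (5305) and 0.798% (267) of all 33469 RefSeq windows of the same length. A match is a run of letters and not a measured binding site.

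**Figure D1:**
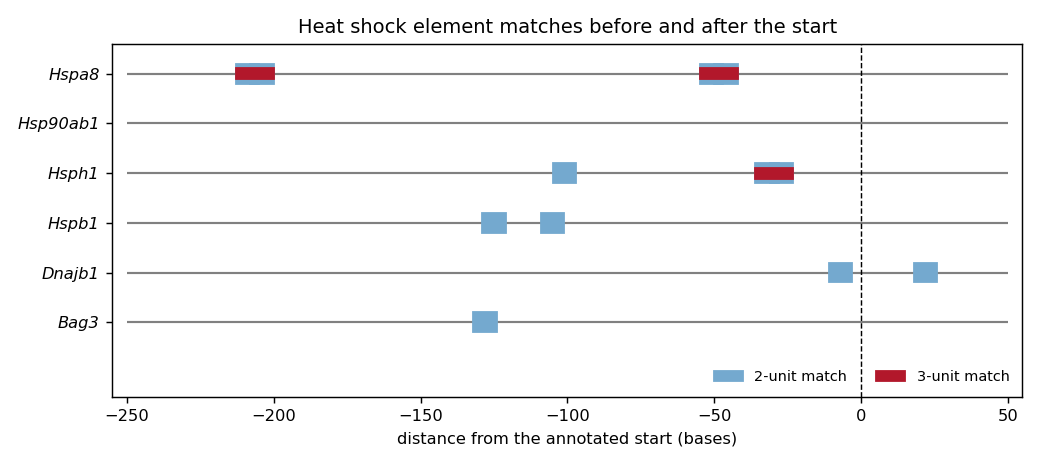
Positions of heat shock element matches in the promoter windows of 6 chaperone genes, with the distance from the annotated start in bases on the x axis and 1 gene per line. Blue boxes are 2-unit matches and red boxes 3-unit matches; Hspa8 carries 2 red boxes and Hsph1 carries 1, while Hsp90ab1 has no box.

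In the comparison of LPS/siponimod with LPS, 3 of the 8 tested members rose (Bag3, Hsph1 and Hsf1), none passed the test as lower and 5 did not pass it. A call required a fold change of 1.5 or more and an adjusted p not above 0.05 in edgeR's quasi-likelihood test. Among all 11977 genes tested, 13.6% were called higher and 11.7% lower, so that the share of the members called higher was 37.5% and that called lower 0%, with 8 genes too few to read more from it. The median log2 fold change (FC) was 0.43 for the members and -0.02 for all genes. For a single gene, groups of 3 allow no exact permutation p under 0.1. The adjusted p-values can reach lower because edgeR's test assumes a distribution of the counts and shares their spread between genes. In bulk RNA, fewer cells of a type and less RNA per cell cannot be told apart.

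The regulator and the exchange factors were the members that rose. Bag3 encodes a co-chaperone that frees clients from HSP70 and hands them to selective autophagy. It was measured at 26.5, 25.3 and 21.2 CPM (counts scaled to the library size with edgeR's TMM factors) in LPS replicates 1, 2 and 3 and at 65.8, 46.6 and 64.6 CPM in LPS/siponimod replicates 1, 2 and 3. All LPS/siponimod libraries lay above all LPS libraries, the lowest of them being replicate 2. Its mean increased from 24.3 ± 2.76 to 59.0 ± 10.7 CPM (SD, n = 3 each), a 2.42-fold rise with a log2 FC of 1.28 (standard error, SE, 0.18, edgeR quasi-likelihood adjusted p = 0.00802). The call for Bag3 was kept under each of the 16 alternative settings, where its adjusted p reached 0.0453 at most.

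Hsph1 encodes HSP110, a relative of HSP70 that acts as its nucleotide exchange factor and holds unfolded proteins in solution. Its levels were 72.4, 97.5 and 135 CPM in the LPS libraries, against 181, 166 and 241 CPM in the LPS/siponimod libraries. The groups did not overlap, and replicate 3 was the highest library in both. The mean rose 1.93-fold, from 102 ± 31.7 to 196 ± 39.9 CPM (SD, n = 3 each; the log2 FC was 0.95 ± 0.27 SE, edgeR quasi-likelihood adjusted p = 0.0439). This call lies close to the threshold. It was lost without LPS replicate 1 (edgeR adjusted p = 0.0879) or replicate 2 (0.137), without LPS/siponimod replicate 1 (0.118), 2 (0.0588) or 3 (0.129), with upper-quartile factors (0.0542) and without the filter on low counts (0.0519).

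Hsf1, the gene of the master transcription factor of the heat shock response, was measured at 18.6, 21.0 and 23.1 CPM with LPS and at 38.2, 28.9 and 33.2 CPM with LPS/siponimod. Each LPS/siponimod library exceeded each LPS library, with replicate 1 the highest of them and the lowest of the LPS group. The mean rose 1.60-fold, from 20.9 ± 2.27 to 33.4 ± 4.63 CPM (SD, n = 3 each; the log2 FC was 0.68 ± 0.15 SE, edgeR quasi-likelihood adjusted p = 0.0248). The Hsf1 call was lost when LPS replicate 1 (edgeR adjusted p = 0.0629) or 2 (0.0862) or LPS/siponimod replicate 1 (0.0986) or 3 (0.0805) was left out. HSF1 activity is set largely at the protein level, which mRNA counts do not show.

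**Figure D2:**
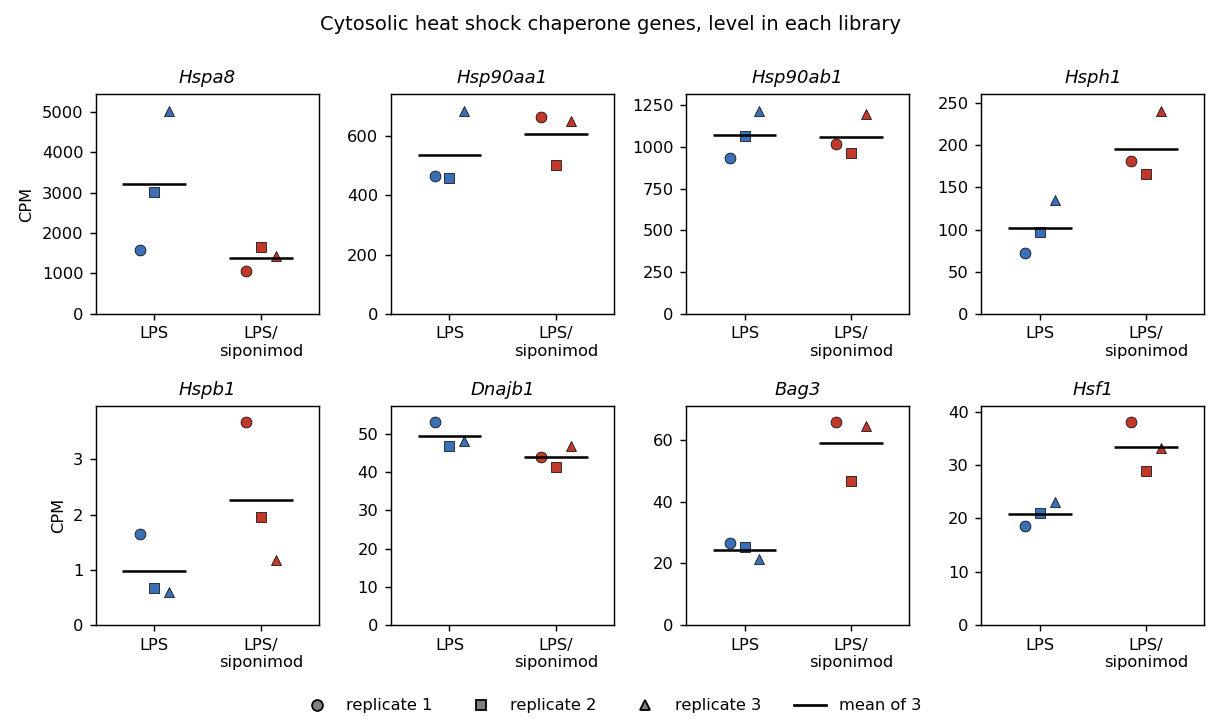
Level of the 8 tested chaperone genes in each of the 6 libraries, in TMM-scaled CPM on linear axes that start at 0, with symbols for the replicate number and a bar for the mean of 3. Bag3, Hsph1 and Hsf1 are separated between the groups, Hspa8 spans 1572 to 5036 CPM within the LPS group, and the HSP90 genes overlap.

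Hspa8, the constitutive HSP70 of the cytosol (HSC70), had a wide spread within the LPS group and did not pass the test. It was measured at 1572, 3020 and 5036 CPM in LPS replicates 1, 2 and 3 and at 1066, 1643 and 1429 CPM in LPS/siponimod replicates 1, 2 and 3. LPS replicate 1 lay below LPS/siponimod replicate 2, so that the groups overlapped, although LPS/siponimod was the lower library in each same-numbered pair (log2 differences -0.56, -0.88 and -1.82). The means were 3210 ± 1740 and 1379 ± 292 CPM (SD, n = 3 each), and their log2 FC of -1.22 (SE 0.44) did not pass edgeR's quasi-likelihood test (adjusted p = 0.0833). It did pass without LPS replicate 1 (-1.53, edgeR adjusted p = 0.0393), by DESeq2 (adjusted p = 0.017) and by edgeR's likelihood ratio test (adjusted p = 0.0269), whereas without LPS replicate 3 the log2 FC was -0.73 (edgeR adjusted p = 0.155). The 8 members together took 0.295%, 0.476% and 0.699% of all counts in the LPS libraries, against 0.307%, 0.350% and 0.387% in the LPS/siponimod libraries.

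Same-numbered libraries deviated together from their group means across genes, so that a further fit took the number as a block, treating such libraries as pairs. With the replicate block, 4 members were called higher and 1 lower, against 17.7% and 16.4% of all genes. Hspa8 was the one called lower (log2 FC -1.08 ± 0.31 SE, edgeR quasi-likelihood adjusted p = 0.0456) and Hspb1 was added to those called higher. The fit with the block left Bag3 (edgeR adjusted p = 0.00862), Hsph1 (0.0122) and Hsf1 (0.0319) past the threshold.

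Hspb1 encodes HSP27, a small heat shock protein that holds unfolded proteins without using ATP. It had only 61, 26 and 22 counts in the LPS libraries, against 171, 87 and 48 counts in the LPS/siponimod libraries. Replicate 1 was the highest and replicate 3 the lowest in both groups, and the groups overlapped because LPS replicate 1 (1.65 CPM) lay above LPS/siponimod replicate 3 (1.17 CPM). The means were 0.971 ± 0.586 and 2.27 ± 1.28 CPM (SD, n = 3 each), and the log2 FC of 1.22 (SE 0.60) did not pass (edgeR quasi-likelihood adjusted p = 0.165). It was 1.85 without LPS replicate 1 (edgeR adjusted p = 0.0996) and 0.68 without LPS/siponimod replicate 1 (edgeR adjusted p = 0.526). The 3 pairs differed by 1.14, 1.46 and 0.93 on the log2 scale, and with the replicate block the SE fell to 0.27 at a log2 FC of 1.22 (edgeR adjusted p = 0.0256).

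**Figure D3:**
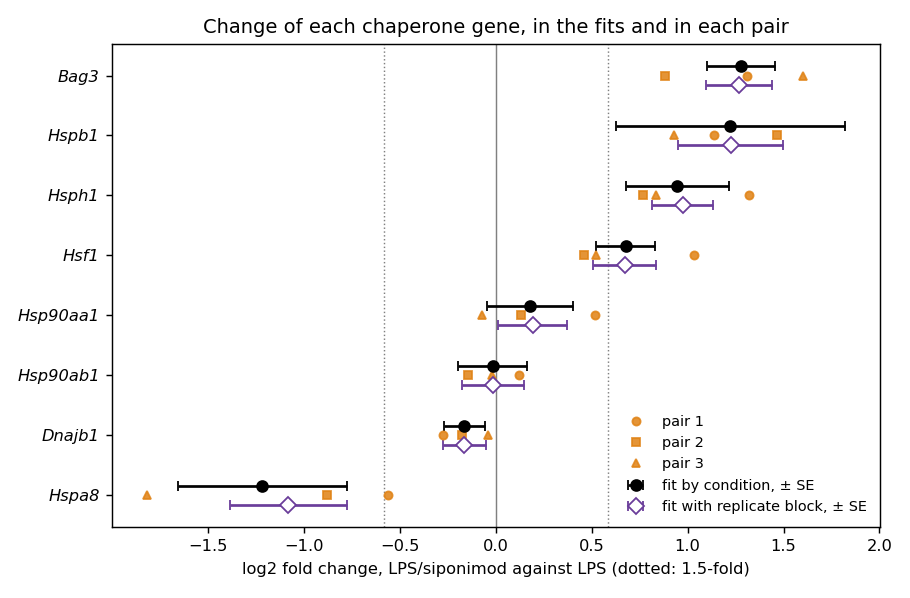
Log2 FC of LPS/siponimod against LPS for each tested chaperone gene (x axis; dotted lines mark 1.5-fold). Black points are the fit by condition and open diamonds the fit with the replicate block, both ± standard error, and orange symbols are the 3 same-numbered pairs; the pairs of Hspa8 reach from -0.56 to -1.82, and those of Bag3, Hspb1, Hsph1 and Hsf1 all lie above 0.

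The cytosolic HSP90 genes did not pass the test. Hsp90aa1, the stress-inducible isoform, was measured at 466, 459 and 687 CPM with LPS and at 666, 504 and 653 CPM with LPS/siponimod. LPS replicate 3 was the highest library of all and the groups overlapped (log2 FC 0.18 ± 0.22 SE, edgeR quasi-likelihood adjusted p = 0.577). Hsp90ab1, the constitutive isoform, was measured at 935, 1065 and 1217 CPM with LPS and at 1016, 964 and 1198 CPM with LPS/siponimod. These groups lay within the same range (log2 FC -0.02 ± 0.18 SE, edgeR quasi-likelihood adjusted p = 0.952), and the value turned positive with library totals only (0.0602) and without LPS replicate 3 (0.0872). The log2 ratio of Hsp90aa1 to Hsp90ab1 counts, which no scaling of a library can change, was -1.01 ± 0.19 with LPS and -0.81 ± 0.17 with LPS/siponimod (SD, n = 3 each). The difference of 0.21 did not pass an exact two-sided permutation test (p = 0.3, where 0.1 is the smallest possible), and by pairs it was 0.40, 0.28 and -0.05. The ratio is not scaled to transcript length and does not give the relative amount of the isoforms.

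Dnajb1 encodes HSP40, the J-domain partner that delivers clients to HSP70, and is itself a known HSF1 target. Its levels were 53.2, 46.9 and 48.0 CPM with LPS and 44.0, 41.4 and 46.7 CPM with LPS/siponimod. Every LPS library lay just above every LPS/siponimod library. The log2 FC was -0.16 (SE 0.11, edgeR quasi-likelihood adjusted p = 0.282), and no alternative setting called it. Of the 8 members, 4 (Bag3, Hsph1, Hsf1 and Dnajb1) had groups that did not overlap, against 49.3% of all genes tested.

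Only 1 of the 6 members with counts and a promoter window held no match, so that presence and absence cannot be compared. Imperfect forms and sequence outside the windows were not searched, so a window without a match can belong to a gene with an element. The values are given side by side. Hspa8 and Hsph1 held the long form, with log2 FC of -1.22 and 0.95. Of the others, Bag3 and Hspb1 held the short form with log2 FC of 1.28 and 1.22, Dnajb1 held it at -0.16, and Hsp90ab1 held none at -0.02.

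Over the 6 libraries, the log2 CPM of the members formed no single pattern. The highest Pearson coefficients were those of Bag3 with Hsf1 (0.913), Hsph1 with Hsf1 (0.906) and Hsph1 with Bag3 (0.791), and the lowest those of Hspa8 with Hspb1 (-0.890) and with Bag3 (-0.827). They are given as a description, since the libraries share the contrast of the groups and their scaling. The 5 genes outside the members whose log2 CPM was most like that of Hspa8 over the 6 libraries were Snrpf (0.996), Emg1 (0.996), Nat10 (0.994), Exosc10 (0.994) and Rbmxl1 (0.993). Snrpf encodes a core protein of the spliceosome, Emg1 and Nat10 enzymes that modify ribosomal RNA, and Exosc10 the nuclear exoribonuclease of the RNA exosome. None of these 5 was called (log2 FC -0.68 for Snrpf and -0.86 for Emg1, edgeR quasi-likelihood adjusted p = 0.0751 and 0.0705). Snrpf and Emg1, like Hspa8, were called lower in the fit with the replicate block (log2 FC -0.64 and -0.81, edgeR adjusted p = 0.0409 and 0.0245). Both were picked for their likeness to Hspa8 over the same 6 libraries, so the shared direction was largely fixed by that choice.

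The genes that work with these chaperones were followed in lists written from general knowledge, but with earlier results of these data known. The shares called in each list are therefore given as a description. Together, the lists of the cytosol and nucleus named 87 genes, of which 78 were tested. Of these, 11 (14.1%) were called higher and 5 (6.41%) lower, close to and below the 13.6% and 11.7% of all genes, with a median log2 FC of 0.02. With the replicate block, 13 were called higher and 6 lower, where all genes gave 17.7% and 16.4%. Without LPS replicate 2, LPS/siponimod replicate 1 or LPS/siponimod replicate 3, the numbers called higher were 5, 5 and 6 and those called lower 0, 0 and 2. Among all genes the same omissions gave 469, 592 and 762 called higher and 182, 191 and 273 called lower, so that the numbers fell in the whole table too.

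Of the other HSP70 and HSP110 genes of the cytosol, 2 of 4 tested (50%) were called higher, against 13.6% of all genes. Hspa4l encodes an HSP110 relative of Hsph1 that also serves as an exchange factor. It had 86, 39 and 241 counts in the LPS libraries, against 19724, 9713 and 18698 counts in the LPS/siponimod libraries. The lowest LPS/siponimod library held many times the counts of the highest LPS library, and the mean rose from 3.27 ± 2.86 to 366 ± 130 CPM (SD, n = 3 each; the log2 FC was 6.81 ± 0.82 SE, edgeR quasi-likelihood adjusted p = 0.00668). Without LPS replicate 3, the log2 FC of Hspa4l was 7.78. Hspa2, an HSP70 best known from spermatogenesis, rose at a low level, from 26, 21 and 16 to 80, 50 and 108 counts (log2 FC 1.70, edgeR quasi-likelihood adjusted p = 0.0322); this call was kept under 9 of 16 alternative settings and lost, for instance, without LPS replicate 2 (edgeR adjusted p = 0.136). Hspa4, the remaining HSP110 relative, was not called (log2 FC 0.32, edgeR quasi-likelihood adjusted p = 0.236).

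Few co-chaperones were called. The shares called higher and lower were 8.33% and 0% of the J-domain genes, 0% and 0% of the HSP70 partners and 6.25% and 12.5% of the HSP90 co-chaperones, against 13.6% and 11.7% of all genes. Among 12 J-domain genes, Dnajb2, whose product shuttles HSP70 clients to the proteasome, was called higher (16.7, 15.6 and 23.1 CPM against 54.3, 37.1 and 44.5 CPM; log2 FC 1.29 ± 0.22 SE, edgeR quasi-likelihood adjusted p = 0.0116), and the other 11 were not called. None of the 10 tested exchange and client-transfer partners of HSP70 was called; Tomm34, a carrier between HSP70 and HSP90, came nearest (log2 FC -0.52, edgeR quasi-likelihood adjusted p = 0.0461, under 1.5-fold). Of 16 HSP90 co-chaperones, Pih1d1 rose (log2 FC 1.12, edgeR adjusted p = 0.0211), while Ppp5c, an HSP90-bound phosphatase, fell by 1.13 on the log2 scale (edgeR adjusted p = 0.0253) and Rpap3 fell by 0.74 (edgeR adjusted p = 0.0133). Pih1d1 and Rpap3 encode subunits of the same R2TP complex, which assembles large machines with HSP90. Thus 2 partners in 1 complex were called in opposite directions. The calls of Dnajb2, Pih1d1, Rpap3 and Ppp5c were each lost without LPS replicate 2 (edgeR adjusted p = 0.0542, 0.0747, 0.0644 and 0.0832) and without LPS/siponimod replicate 1 (0.0502, 0.0907, 0.0645 and 0.108), and those of the last 3 also without LPS/siponimod replicate 3 (0.0661, 0.0558 and 0.0896).

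**Figure D4:**
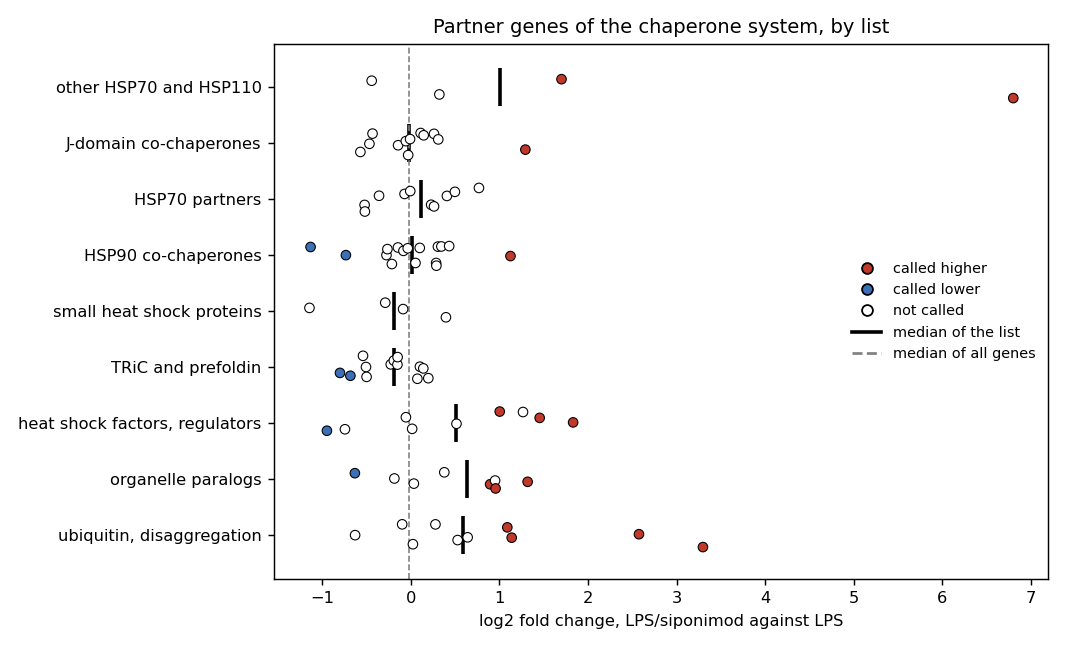
Log2 FC of LPS/siponimod against LPS (x axis) for each tested gene of the 9 lists of partner genes, 1 point per gene, red for called higher, blue for called lower and white for not called. Thick bars are the medians of the lists and the dashed line is the median of all genes (-0.02); the point at 6.81 is Hspa4l.

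Of 13 tested subunits of the chaperonin TRiC and its feeder prefoldin, which fold newly made proteins, 2 (15.4%) were called lower and none higher, against 11.7% and 13.6% of all genes, with a median log2 FC of -0.19. Both encode prefoldin subunits, Pfdn5 (37.5, 43.8 and 48.9 CPM against 21.1, 26.5 and 27.0 CPM; log2 FC -0.80, edgeR quasi-likelihood adjusted p = 0.0173) and Pfdn1 (46.4, 44.4 and 62.8 CPM against 30.7, 34.3 and 30.4 CPM; log2 FC -0.68, edgeR quasi-likelihood adjusted p = 0.0279). No TRiC subunit was called in either direction. Pfdn5 and Pfdn1 were not called without LPS replicate 2 (edgeR adjusted p = 0.0707 and 0.0615), LPS/siponimod replicate 1 (0.0689 and 0.113) or LPS/siponimod replicate 3 (0.0557 and 0.101), nor Pfdn1 without LPS replicate 1 (0.052) or, at under 1.5-fold, without LPS replicate 3. None of the 4 tested small heat shock proteins other than Hspb1 was called. The smallest adjusted p was that of Hspb9 (24, 28 and 11 against 11, 12 and 10 counts, log2 FC -1.15, edgeR quasi-likelihood adjusted p = 0.11). Hspb9 was called lower only when LPS replicate 3 was left out (log2 FC -1.45, edgeR adjusted p = 0.0384).

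Hsf1 was not the only gene of its family to change. Of 9 tested heat shock factors and regulators of HSF1, 3 (33.3%) were called higher and 1 (11.1%) lower, against 13.6% and 11.7% of all genes. Hsf2, which can join HSF1 in mixed trimers, was measured at 10.1, 11.8 and 10.5 CPM with LPS and at 41.9, 32.2 and 41.5 CPM with LPS/siponimod (log2 FC 1.83 ± 0.16 SE, edgeR quasi-likelihood adjusted p = 0.00383). Sirt1, a deacetylase known to prolong HSF1 binding to DNA, rose from 14.5 ± 2.74 to 39.7 ± 4.65 CPM (SD, n = 3 each; the log2 FC was 1.45, edgeR quasi-likelihood adjusted p = 0.00724). The translation elongation factor gene Eef1a1, whose product also takes part in HSF1 activation, rose from 3330 ± 344 to 6672 ± 605 CPM (SD, n = 3 each; the log2 FC was 1.00, edgeR quasi-likelihood adjusted p = 0.0189). Hsbp1, whose small product binds HSF1 and dampens it, fell from 199, 236 and 263 to 107, 117 and 137 CPM (log2 FC -0.95 ± 0.16 SE, edgeR quasi-likelihood adjusted p = 0.0128). None of these groups overlapped. The other 5 tested genes of the list were not called, among them Ier5 (log2 FC 0.01), Fbxw7 (-0.06), Ier5l (-0.75) and Crebbp (0.51). With the replicate block, 4 of the list were called higher and 1 lower, the added one being Hsf4, another heat shock factor (log2 FC 1.27, edgeR adjusted p = 0.153 without the block and 0.0445 with it). The calls of Hsf2 and Sirt1 did not depend on any 1 library, whereas those of Eef1a1 and Hsbp1 were lost without LPS replicate 2 (edgeR adjusted p = 0.0742 and 0.0601) or LPS/siponimod replicate 1 (0.0781 and 0.0614), and that of Eef1a1 also without LPS/siponimod replicate 3 (0.0772).

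Of the 10 ubiquitin and disaggregation genes, 4 (40%) were called higher and none lower, against 13.6% and 11.7% of all genes, and with the replicate block 5 higher and 1 lower. Among the tested genes of the partner lists, Sqstm1 and Zfand2a had the largest changes after Hspa4l. Sqstm1 encodes p62, an autophagy receptor for ubiquitinated cargo that works with BAG3. It was measured at 18322, 7563 and 7943 counts with LPS, against 164200, 117218 and 112399 counts with LPS/siponimod (log2 FC 3.30 ± 0.43 SE, edgeR quasi-likelihood adjusted p = 0.00737). Zfand2a, a stress-inducible partner of the proteasome and a known HSF1 target, rose from 95.1, 77.9 and 103 to 669, 402 and 574 CPM (log2 FC 2.58 ± 0.24 SE, edgeR quasi-likelihood adjusted p = 0.00457). All LPS/siponimod libraries lay far above the LPS libraries for both genes, and replicate 1 was the highest of them in each case. Ubqln2, a shuttle factor for the proteasome, and Nbr1, another autophagy receptor, rose by 1.09 and 1.14 on the log2 scale (edgeR quasi-likelihood adjusted p = 0.017 and 0.0271). The calls of Hspa4l, Hsf2, Sirt1, Zfand2a and Sqstm1 were kept under all 16 alternative settings. That of Ubqln2 was kept under 11, and lost without LPS replicate 1 (edgeR adjusted p = 0.0539) or 2 (0.0707) or LPS/siponimod replicate 1 (0.0706) or 3 (0.0526). The adjusted p of Nbr1 reached 0.11 with 1 library left out and was 0.0637 without both replicate 3 libraries (edgeR quasi-likelihood test).

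**Figure D5:**
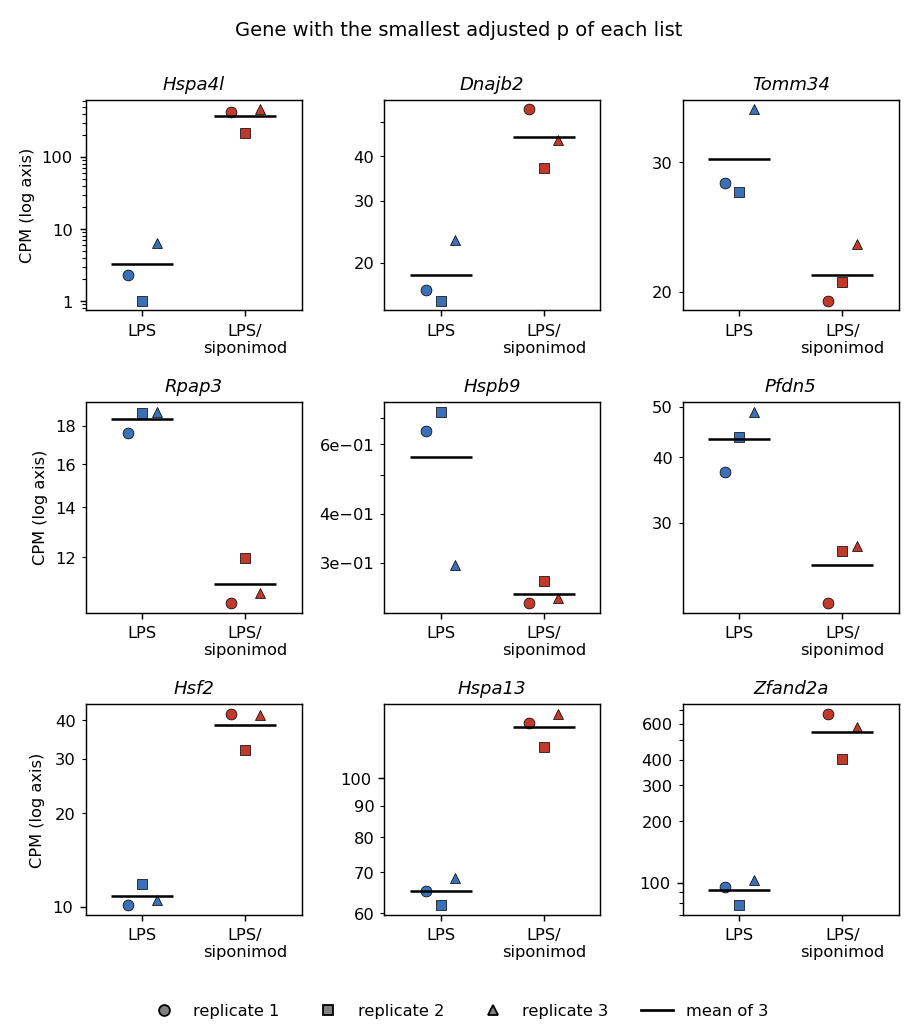
Level in each of the 6 libraries, in TMM-scaled CPM on log axes, of the gene with the smallest adjusted p in each of the 9 lists of partner genes, with symbols for the replicate number and a bar for the mean of 3. The groups do not overlap in any panel; Hspa4l, Hsf2 and Zfand2a are higher with LPS/siponimod, Rpap3 and Pfdn5 are lower, and Tomm34 and Hspb9 were not called.

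The cells carried microglial markers in all libraries. All 10 microglia markers had counts in each library, but their level moved with the condition, with summed levels of 7508, 6522 and 4598 CPM with LPS and 3721, 4544 and 2939 CPM with LPS/siponimod. The most abundant, Csf1r, was at 3051, 2340 and 932 CPM against 636, 1309 and 491 CPM, and Aif1, Itgam and Cx3cr1 were called lower. Several markers of other neural cells had most of their counts in the replicate 3 libraries. Olig1 of the oligodendrocyte lineage had 1, 5 and 515 counts with LPS, against 2, 3 and 17 with LPS/siponimod, and the neuronal Map2 had 0, 3 and 162 against 1, 1 and 115 counts. The astrocyte marker Gfap had 1, 2 and 88 against 0, 0 and 1 counts. Others did not follow this, with Mbp lowest in LPS replicate 3 (149, 161 and 84 counts) but highest in LPS/siponimod replicate 3 (470, 397 and 652 counts), and Snap25 lowest in LPS/siponimod replicate 3 (94, 153 and 81 counts).

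LPS replicate 3 was thus both the library with the highest Hspa8 level and the one with the most counts of Olig1. Summed over 8 markers, the oligodendrocyte lineage reached 5.34, 5.37 and 36.0 CPM with LPS and 11.4, 10.3 and 22.6 CPM with LPS/siponimod; Mbp was the most abundant and was called higher, and Mog had at most 1 count in any library. Summed over 7 markers, neurons reached 1.70, 1.06 and 11.4 CPM against 6.39, 9.28 and 17.1 CPM, with Tubb3 the most abundant, Snap25 called higher and Rbfox3 at 0 counts in 4 libraries. Astrocyte markers summed to 48.4, 24.2 and 25.0 CPM against 29.3, 28.8 and 59.6 CPM, with Slc1a3 the most abundant, Aldoc called lower and S100b at 4 counts or fewer. Fibroblast and vessel markers summed to 170.5, 217 and 96.9 CPM against 49.9, 86.0 and 34.4 CPM, with Cdh5 the most abundant, Dcn called higher, Flt1 called lower and Lum at 4 counts or fewer. The part of these cells in the chaperone values was not tested. Without both replicate 3 libraries, Bag3 and Hsph1 remained called higher, Hsf1 was not called (log2 FC 0.76, edgeR quasi-likelihood adjusted p = 0.0563) and Hspa8 had a log2 FC of -0.76 (edgeR quasi-likelihood adjusted p = 0.255).

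Some of these values are uncertain for a technical reason. The RefSeq gene table for GRCr8 names 33 pseudogenes after Hspa8, 23 after Hsp90ab1, 20 after Eef1a1 and 16 after Hsp90aa1, and none after the other members. The treatment of reads with several possible origins, and of strand, is not stated in the sources used here.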

How the data were processed

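Per the labels and the methods of the study, total RNA was enriched for mRNA, single-end reads were demultiplexed with bcl2fastq (version 2.20.0.422), trimmed and mapped to the rat genome mRatBN7.2 in the CLC Genomics Workbench. The authors deposited 1 table per library with the total counts of each named gene, not normalized. In 1 library, 1 row without a name held 0 counts and was left out. The tests were run with edgeR (version 4.0.16, R version 4.3.3): filterByExpr (minimum count 10, minimum total 15), TMM factors (0.939 to 1.056), and glmQLFit and glmQLFTest by condition, with Benjamini-Hochberg adjustment over 11977 genes. The standard error is the log2 FC divided by the square root of the F statistic. Log2 CPM used a prior count of 2. Replicates are biological per the study, but whether they came from separate litters is not stated.

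Named were all members, of each list up to 3 called genes per direction by adjusted p (otherwise the gene with the smallest), the 5 genes most like Hspa8, and the most abundant gene of each marker list. Nbr1, Hspa4, Hspa5, Hsf4, Ier5, Fbxw7, Ier5l, Crebbp, Hspb8, Olig1, Map2 and the other marker genes were named after their values were seen. Members and lists were chosen with earlier results of these data known. St13, Vbp1, Ep300, Cryaa and Cldn5 were not listed under these names and were not analysed here, and Hspa1l, Hspb3, Hspb7, Hspb8 and Hsf2bp did not pass the filter.

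After centring on group means, the correlation over genes was 0.42, 0.545 and 0.611 for same-numbered libraries and -0.534 to 0.0856 for the rest, so that the numbers were treated as pairing. Deviations from a group mean cancel out within the group, so positive values for same-numbered libraries push the rest down. The low values of the rest are thus not separate evidence of pairing. Alternatives were RLE and upper-quartile factors, library totals, DESeq2 (version 1.42.0), limma-voom (limma version 3.58.1), the likelihood ratio test, the replicate block, a filter at 1 count in all (17057 genes) or at a mean of 1 CPM (10885 genes), each library left out, and, chosen after seeing the data, both replicate 3 libraries left out. The fit was tested on simulated data with known changes.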

Additional observations from a re-analysis of the deposited data

How the results depend on the processing

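Of the 8 members tested, 3 were called higher and 0 lower. Leaving out 1 library at a time gave 1 to 3 higher and 0 to 1 lower: Bag3 alone was called higher without LPS replicate 1 or 2 or LPS/siponimod replicate 1 or 3. Hspa8 was the 1 member called lower with DESeq2, with the likelihood ratio test, with the replicate block and without LPS replicate 1. Among the lists of the cytosol and nucleus, leaving out 1 library gave 5 to 12 called higher and 0 to 6 lower, and leaving out both replicate 3 libraries 7 and 3, against 11 and 5. Among all genes it gave 469 to 1941 higher and 182 to 1772 lower, against 1633 and 1403. The log2 ratio of Hsp90aa1 to Hsp90ab1 differed by 0.11 to 0.30, with an exact p of 0.5 by pairs (smallest possible 0.25). Hsp90ab1 changed sign with library totals only (0.0602), and ranged from -0.11 to 0.0872 with 1 library left out, turning positive without LPS replicate 3 or LPS/siponimod replicate 1 or 2. The cause of these shifts was not tested. For single genes, 117 of the values with 1 library left out kept direction and call, 52 lost the call, 2 gained it and 3, all of Hsp90ab1, changed sign; under the other alternatives 269 kept both, 15 lost the call and 4 gained it. The replicate block changed the calls of Hspa8 and Hspb1 and of no other member. The median log2 FC of all genes lay between -0.07 (upper quartile) and 0.06 (library totals).

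With 38080379 to 46643859 counts per library, depth limits mainly Hspb1, Hspa2, Hspb9 and Hsf4 among the named chaperone and partner genes tested, with 8 to 171 counts each. The planned ratio of Hspa1a plus Hspa1b to Hspa8 and the fit with these summed could not be run, since neither was listed.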

Other observations

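The mitochondrial and endoplasmic reticulum relatives of these chaperones were counted apart: of 8 tested, 3 (37.5%) were called higher and 1 (12.5%) lower, against 13.6% and 11.7% of all genes, and with the replicate block 4 higher and 1 lower. The list had a median log2 FC of 0.64. Hspa9, the HSP70 of the mitochondrial matrix, rose from 217, 238 and 298 to 713, 518 and 645 CPM (log2 FC 1.32, edgeR quasi-likelihood adjusted p = 0.0096). Trap1, the mitochondrial HSP90, fell from 47.0, 55.8 and 45.2 to 28.6, 37.3 and 29.5 CPM (log2 FC -0.63, edgeR quasi-likelihood adjusted p = 0.0289). Both work in the same compartment, and their groups did not overlap in either case. Hspa13, a microsomal HSP70, and Hyou1, an HSP110 relative of the endoplasmic reticulum, rose by 0.89 and 0.96 on the log2 scale (edgeR quasi-likelihood adjusted p = 0.00724 and 0.0439). Hspa5, the main HSP70 of that compartment, had a log2 FC of 0.95 and was not called by condition (edgeR quasi-likelihood adjusted p = 0.067) but was called higher with the replicate block (0.96, edgeR adjusted p = 0.0292). Of these calls that of Hspa13 was kept under all 16 alternative settings, that of Hspa9 was lost without LPS replicate 2 (edgeR adjusted p = 0.0515), and those of Trap1 and Hyou1 were lost under 6 and 8 settings, among them the omission of LPS replicate 1 (0.0689 and 0.12), LPS replicate 2 (0.111 and 0.0977), LPS/siponimod replicate 1 (0.124 and 0.103) or 3 (0.106 and 0.0987).

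Hspb8, the small heat shock protein gene whose product pairs with BAG3, did not pass the filter on low counts, with 4, 3 and 59 counts in the LPS libraries, against 5, 10 and 509 counts in the LPS/siponimod libraries. Nearly all of these counts lay in the replicate 3 libraries, where the summed levels of the oligodendrocyte lineage and neuron markers were also highest within each group. In replicate 3, the oligodendrocyte lineage sum was 36.0 CPM with LPS and 22.6 CPM with LPS/siponimod, and the neuron sum 11.4 and 17.1 CPM. Whether other cells contributed to the Hspb8 counts was not tested.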
